A study of Mus musculus with 24 samples.

Results

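The 41 genes described here encode core proteins of autophagy and of the lysosome, and their RNA was measured in mouse liver. They were taken by name from what each protein is known to do, by a rule that uses no measured value, although earlier results of these data were known when they were listed. They hold 27 genes of the autophagy machinery, 2 transcription factors that switch on lysosomal genes, and 12 genes of the lysosome itself. The array design names 37074 genes, of which 21372 had a probe bright enough to be tested, and all 41 genes were among these.

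Autophagy carries cytoplasm to the lysosome for breakdown, and in the fasted liver it supplies amino acids, lipids and sugars from the cell's own contents. A kinase complex built on ULK1 starts the process, a lipid kinase complex marks the new membrane, and ATG2 and ATG9 proteins supply lipid to it. A conjugation system then couples small proteins of the Atg8 family to the growing membrane, and cargo receptors bind both the Atg8 proteins and the cargo. Insulin restrains the pathway through PI3K, AKT and mTORC1, which keep ULK1, the transcription factors TFEB and TFE3, and the FOXO factors in check.

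Liver RNA was hybridized to 1-colour 60-base oligonucleotide arrays from 24 male C57BL/6J mice of 12 weeks, 6 in each of 4 groups, all killed at ZT16. p110aLKO mice carried floxed alleles of Pik3ca, the gene of the PI3K catalytic subunit p110α, together with a Cre recombinase driven by the albumin promoter, which is active in hepatocytes. p110aLWT mice were littermates that carried the same floxed alleles without Cre, so both genotypes share the floxed locus and only p110aLKO carries Cre. Mice of each genotype were fed (p110aLWT_Fed and p110aLKO_Fed) or went without food for 24 h (p110aLWT_Fasted and p110aLKO_Fasted), and the design asks how fasting, the deletion and their combination change the liver transcriptome. Each array is 1 mouse, and whole liver was used, so a gene's level also counts non-hepatocytes, and fewer cells of a type cannot be told apart from less RNA per cell.

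The share of spots well above background lay between 54.7% and 63.0% on the 24 arrays, and 0 spots were saturated. The Pik3ca probe was not lower in the arrays labelled p110aLKO: the log2 difference from p110aLWT was 0.58 in fed mice (limma, adjusted p = 0.00155) and -0.02 in fasted mice (limma, adjusted p = 0.931). With fasting it changed by 0.35 (limma, adjusted p = 0.016) in p110aLWT and by -0.25 (limma, adjusted p = 0.108) in p110aLKO. The difference between the 2 changes was -0.60 (limma, adjusted p = 0.0315). Whether this probe lies in the deleted exons was not examined, so it does not check the genotype labels, and each genotype is named below as its arrays are labelled. p110aLKO_Fasted replicates 1 and 2 stood apart from the rest of their group, with r = 0.996 to each other and 0.985 to 0.9924 to replicates 3 to 6, which correlated at 0.9894 to 0.9957 among themselves. The calls that were lost without those arrays are named below. Levels are normalized log2 intensities of 1 probe per gene and can be compared between groups for a gene, not between genes. A gene "passed" where the adjusted p was at most 0.05 over all 32197 probes kept.

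Fasting raised many genes of the autophagy machinery, among them most of the Atg8 family and the cargo receptors, and some of the lysosomal hydrolases. In p110aLWT mice, 20 of the 41 genes were higher after fasting, 3 were lower and 18 did not pass, while 19.4% of all genes tested were higher and 21.3% were lower. In p110aLKO mice, 16 were higher, 5 were lower and 20 did not pass, against 19.6% higher and 21.7% lower among all genes. The median log2 change of the 41 genes was 0.18 in p110aLWT and 0.12 in p110aLKO, and that of all genes was -0.01 and -0.02.

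By the adjusted p alone, 16 of 27 machinery genes and 6 of 12 lysosomal genes passed for fasting in p110aLWT. In p110aLKO 15 of 27 and 5 of 12 passed. All the fasting changes past 1.5-fold were in the machinery. Of its 27 genes, 15 rose and 1 fell with fasting in p110aLWT (median log2 change 0.21), and 12 rose and 3 fell in p110aLKO (median 0.13). Past 1.5-fold, 6 rose in p110aLWT, where 9.99% of all genes passed that rule in either direction, and 8 rose and 1 fell in p110aLKO, against 12.7% of all genes. Of the 12 lysosomal genes, 4 rose and 2 fell in p110aLWT (median 0.06), and 3 rose and 2 fell in p110aLKO (median -0.02), all by less than 1.5-fold. These 12 are of 2 kinds: the 7 hydrolases had medians of 0.18 in p110aLWT and 0.20 in p110aLKO, with 3 higher and 2 lower in each, and the 5 membrane genes had medians of -0.02 and -0.06. The hydrolase medians were thus close to that of the machinery in p110aLWT and above it in p110aLKO, a description of so few genes that was not tested. Across the 41 genes the 2 fasting responses, which share no array, had r = 0.82 and Spearman's rho = 0.79, and 33 genes had the same sign. This correlation is across genes, which are not independent replicates. Within the 3 slides, 198 of the 201 within-slide differences behind the calls for the 41 genes had the sign of the pooled value. Without p110aLKO_Fasted replicates 1 and 2, 23 genes passed for fasting in p110aLWT and 19 in p110aLKO. Over the 5 comparisons, 7 calls were lost without them: Gabarapl2 (0.16, adjusted p = 0.118) and Ctsb (-0.25, adjusted p = 0.0599) for fasting in p110aLKO, Atg3 (-0.17, adjusted p = 0.052), Atg5 (-0.14, adjusted p = 0.0681) and Ctsz (0.22, adjusted p = 0.0513) for the fed genotypes, Atg5 (-0.16, adjusted p = 0.0876) for the fasted genotypes, and Tfe3 (0.31, adjusted p = 0.0596) for the interaction. Of the genes described at length, the fasting change in p110aLKO without them was 0.96 for Sqstm1, 1.09 for Optn, 0.99 for Ulk1, 1.13 for Atg2a and 0.63 for Bnip3, all still called.

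**Figure D1:**
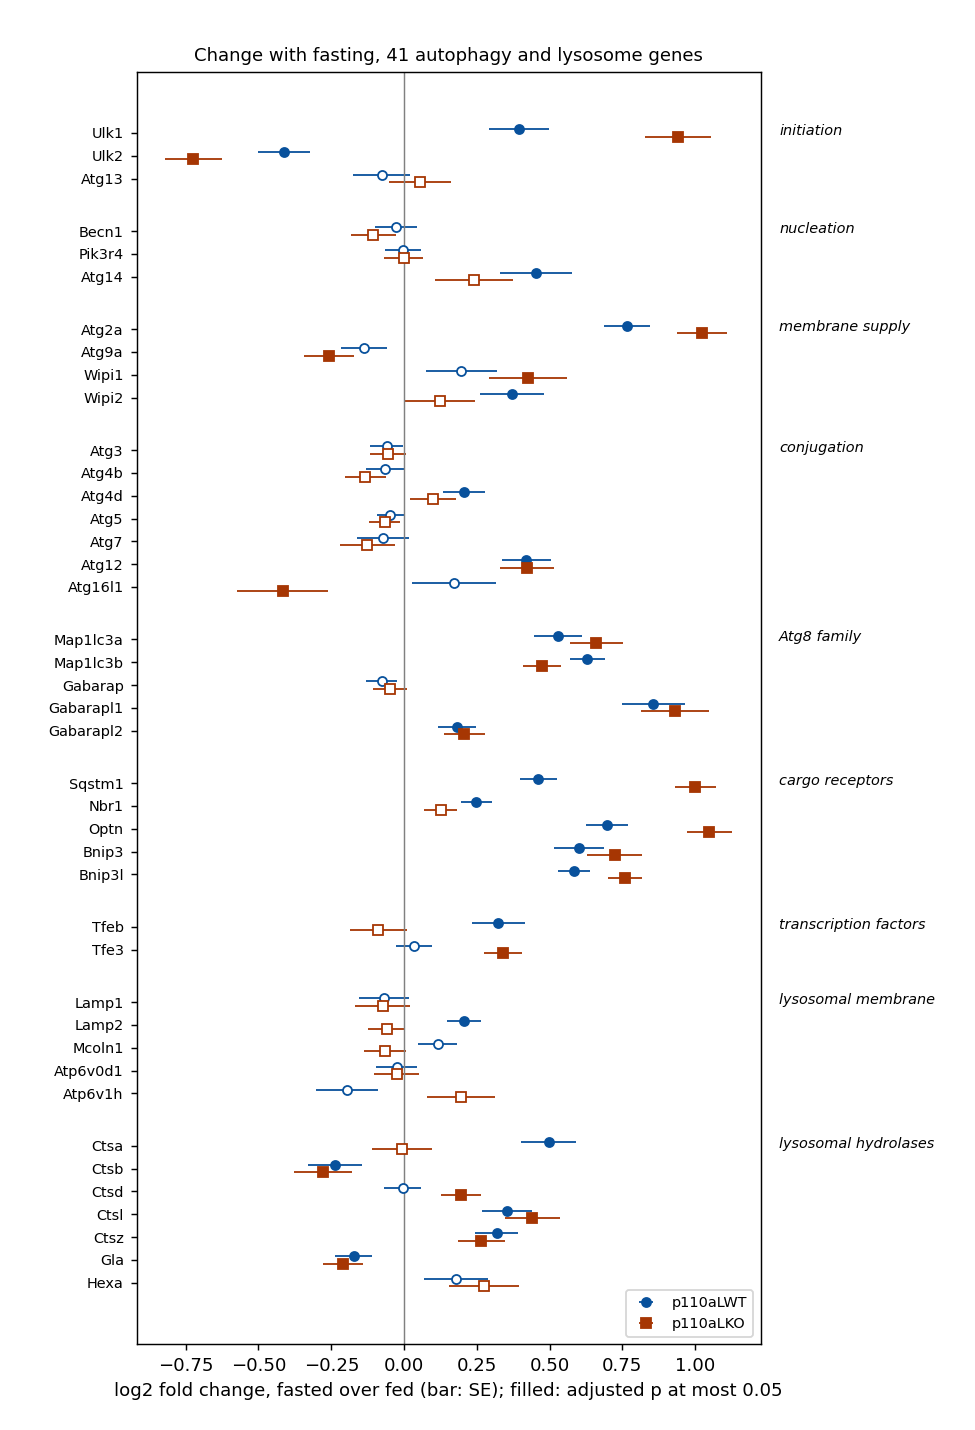
Log2 change from fed to fasted of each of the 41 genes (horizontal axis, log2 fold change with its standard error) in p110aLWT and p110aLKO mice (6 arrays per group), ordered by role, with filled symbols where the adjusted p was at most 0.05. The Atg8 family and the cargo receptors hold most of the filled symbols at the right, and Ulk2 lies farthest to the left at -0.41 in p110aLWT and -0.72 in p110aLKO.

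Among the initiation genes, the kinases Ulk1 and Ulk2 moved in opposite directions. Ulk1 (probe for NM_009469, mm9 chr5:111213514-111213573), whose product is the kinase that starts autophagy, lay between 13.04 and 13.30 (median 13.15) on the p110aLWT_Fed arrays and between 13.45 and 13.80 (median 13.58) on the p110aLWT_Fasted arrays. It lay between 12.54 and 13.30 (median 12.71) in p110aLKO_Fed and between 13.48 and 13.94 (median 13.84) in p110aLKO_Fasted. In both genotypes every fasted array was above every fed array. The log2 change was 0.40 (SE 0.104, 1.32-fold, adjusted p = 0.00399) in p110aLWT and 0.94 (SE 0.113, 1.92-fold, adjusted p = 6.98e-07) in p110aLKO. The lower start in fed p110aLKO was also called, at a log2 difference from fed p110aLWT of -0.34 (SE 0.105, adjusted p = 0.032), but those groups overlap, and the call was lost in 8 of 24 cases with 1 array left out (-0.27, adjusted p = 0.112 without p110aLKO_Fed replicate 1). A second, dim Ulk1 probe rose by 0.28 and 0.36 with fasting in p110aLWT and p110aLKO and showed no called fed difference (-0.01, adjusted p = 0.942).

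Ulk2 (probe for NM_013881, mm9 chr11:61591022-61591081), a kinase closely related to ULK1, fell. Its levels were 10.58 to 11.05 (median 11.04) in p110aLWT_Fed, 10.38 to 10.86 (median 10.56) in p110aLWT_Fasted, 10.82 to 11.12 (median 10.97) in p110aLKO_Fed and 10.04 to 10.53 (median 10.13) in p110aLKO_Fasted. The p110aLKO_Fasted arrays all lay below the p110aLKO_Fed arrays, while the p110aLWT groups overlapped through 1 low fed array, replicate 3. The log2 change was -0.41 (SE 0.0902, adjusted p = 0.000823) in p110aLWT and -0.72 (SE 0.0983, 1.65-fold lower, adjusted p = 3.59e-06) in p110aLKO. The second Ulk2 probe gave -0.29 and -0.74. Atg13, the adaptor of the ULK1 complex, did not pass in any comparison, with log2 differences between -0.15 and 0.13.

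The lipid kinase complex that marks the new membrane showed 1 change. Atg14, the subunit that directs the complex to autophagy, rose by 0.45 on the log2 scale (SE 0.124, adjusted p = 0.00535) in p110aLWT, from 9.84 to 10.28 in fed mice to 10.40 to 10.69 in fasted mice, with no overlap. In p110aLKO its change was 0.24 (SE 0.135, adjusted p = 0.164), and the test of the difference between the 2 changes did not pass (-0.21, SE 0.183, adjusted p = 0.529). Becn1 (Beclin 1) and Pik3r4 (the VPS15 scaffold) did not pass in any comparison, with log2 differences from -0.12 to -0.03 and from 0 to 0.08.

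Of the 4 genes that supply lipid and read the membrane mark, Atg2a changed most. Atg2a (probe for NM_194348, mm9 chr19:6262231-6262290) encodes a bridge along which lipid flows into the growing membrane. Its levels were 11.91 to 12.10 (median 12.00) in p110aLWT_Fed, 12.57 to 13.02 (median 12.74) in p110aLWT_Fasted, 11.96 to 12.11 (median 12.01) in p110aLKO_Fed and 12.69 to 13.26 (median 13.12) in p110aLKO_Fasted. The fed groups overlapped, and the fasted groups were above them. Fasting raised it by 0.77 (SE 0.0778, 1.70-fold, adjusted p = 8.23e-08) in p110aLWT and by 1.02 (SE 0.0848, 2.03-fold, adjusted p = 3.02e-09) in p110aLKO. Wipi2, a reader of the membrane lipid mark, rose by 0.37 (adjusted p = 0.00995) in p110aLWT and changed by 0.12 (adjusted p = 0.441) in p110aLKO, where p110aLKO_Fasted replicate 4 read 8.92 and the other 5 arrays 10.07 or more. The 2 other Wipi2 probes passed in both genotypes, at 0.30 and 0.31 for one and 0.48 and 0.52 for the other. Wipi1, its relative, rose by 0.43 (adjusted p = 0.0138) in p110aLKO and changed by 0.20 (adjusted p = 0.214) in p110aLWT. Neither interaction passed (-0.25, adjusted p = 0.396 for Wipi2 and 0.23, adjusted p = 0.489 for Wipi1). Atg9a, the membrane protein that brings vesicles to the site, fell by 0.26 (adjusted p = 0.0194) in p110aLKO and changed by -0.14 (adjusted p = 0.175) in p110aLWT, and its interaction did not pass (-0.12, adjusted p = 0.582). The Wipi1 call is uneven over slides: the change was -0.12 on the first slide and 0.53 and 0.64 on the others, and without p110aLKO_Fasted replicate 5 it did not pass (0.35, adjusted p = 0.0516).

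Of the 7 conjugation genes, 2 rose with fasting in p110aLWT, and 1 rose and 1 fell in p110aLKO. Atg12, the ubiquitin-like protein that is coupled to ATG5, rose by 0.42 on the log2 scale in both genotypes (SE 0.0843, adjusted p = 0.000369 in p110aLWT and SE 0.0919, adjusted p = 0.000788 in p110aLKO). Atg4d, a protease that trims Atg8 proteins, rose by 0.21 (adjusted p = 0.025) in p110aLWT and changed by 0.10 (adjusted p = 0.329) in p110aLKO, and its interaction did not pass (-0.11, adjusted p = 0.596). Neither Atg4b nor Atg7, the E1-like enzyme of both conjugation reactions, passed in any comparison with its brightest probe, with log2 differences from -0.13 to -0.05 and from -0.15 to -0.05. The second Atg7 probe fell with fasting in p110aLKO (-0.37, adjusted p = 0.0075) and was lower in fasted p110aLKO (-0.30, adjusted p = 0.0487). The second Atg4b probe fell in p110aLKO (-0.27, adjusted p = 0.00433), and a dimmer one rose in p110aLWT (0.19, adjusted p = 0.0334) and was lower in fasted p110aLKO (-0.29, adjusted p = 0.00771). Atg3, the E2-like enzyme for Atg8 proteins, changed by -0.06 with fasting in each genotype, and Atg5 by -0.05 in p110aLWT and -0.07 in p110aLKO, and neither passed. Atg16l1 is described with the genotype differences.

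In the Atg8 family, the proteins that are fixed to the membrane and hold cargo receptors, 4 of 5 genes passed upward in each genotype, all but Gabarap. Gabarapl1 (probe for NM_020590, mm9 chr6:129492254-129492313) lay between 15.41 and 15.88 (median 15.64) in p110aLWT_Fed, 16.31 and 16.77 (median 16.54) in p110aLWT_Fasted, 15.33 and 15.92 (median 15.62) in p110aLKO_Fed, and 16.36 and 16.80 (median 16.48) in p110aLKO_Fasted. Its log2 change was 0.86 (SE 0.107, 1.81-fold, adjusted p = 1.45e-06) in p110aLWT and 0.93 (SE 0.117, 1.91-fold, adjusted p = 1.24e-06) in p110aLKO. Fed and fasted arrays of Gabarapl1 were fully apart in both genotypes, and a second probe gave 1.01 and 0.95. Map1lc3b (probe for NM_026160, mm9 chr8:124120787-124120846), which encodes LC3B, the protein most used to follow autophagosomes, lay between 13.80 and 14.10 (median 13.93) in p110aLWT_Fed and between 14.43 and 14.82 (median 14.60) in p110aLWT_Fasted. It lay between 13.89 and 14.06 (median 14.02) in p110aLKO_Fed and between 14.40 and 14.68 (median 14.48) in p110aLKO_Fasted. Its groups did not overlap either, and the log2 change was 0.63 (SE 0.0598, 1.55-fold, adjusted p = 3.2e-08) in p110aLWT and 0.47 (SE 0.0651, adjusted p = 4.31e-06) in p110aLKO. The second Map1lc3b probe gave 0.62 and 0.51, while another, dimmer one gave 0.41 and -0.08.

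Map1lc3a (LC3A, probe for NM_025735, mm9 chr2:155103435-155103494) lay between 10.82 and 11.49 (median 11.11) in p110aLWT_Fed, 11.41 and 11.69 (median 11.58) in p110aLWT_Fasted, 10.67 and 11.09 (median 10.80) in p110aLKO_Fed, and 11.29 and 11.70 (median 11.45) in p110aLKO_Fasted. Fed and fasted arrays overlapped in p110aLWT only. The log2 change was 0.53 (SE 0.0825, adjusted p = 2.35e-05) in p110aLWT and 0.66 (SE 0.0899, 1.58-fold, adjusted p = 3.61e-06) in p110aLKO. Gabarapl2 rose less, by 0.18 (adjusted p = 0.0296) and 0.21 (adjusted p = 0.0228). The brightest Gabarap probe did not pass, with a log2 change of -0.08 (SE 0.0524, adjusted p = 0.26) in p110aLWT and -0.05 (SE 0.0571, adjusted p = 0.532) in p110aLKO. A dim second Gabarap probe rose in p110aLKO (0.31, adjusted p = 0.000138), was lower in fed p110aLKO (-0.21, adjusted p = 0.00885) and had an interaction of 0.26 (adjusted p = 0.0439).

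The cargo receptors rose by a median log2 of 0.59 in p110aLWT, where 5 of 5 passed, and 0.76 in p110aLKO, where 4 of 5 passed. Sqstm1 (probe for NM_011018, mm9 chr11:50013670-50013729) encodes p62, the receptor for ubiquitin-tagged cargo. Its levels were 15.22 to 15.50 (median 15.26) in p110aLWT_Fed, 15.53 to 15.82 (median 15.73) in p110aLWT_Fasted, 15.15 to 15.36 (median 15.25) in p110aLKO_Fed and 16.12 to 16.57 (median 16.23) in p110aLKO_Fasted. The fed groups overlapped, with a log2 difference of 0 (adjusted p = 0.993), and the fasted p110aLKO arrays stood above all others. Fasting raised Sqstm1 by 0.46 (SE 0.0643, 1.38-fold, adjusted p = 5.91e-06) in p110aLWT and by 1.0 (SE 0.0701, adjusted p = 2.58e-10) in p110aLKO.

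Optn (probe for NM_181848, mm9 chr2:4941834-4941893) encodes optineurin, a receptor for damaged mitochondria and bacteria. It lay between 11.29 and 11.76 (median 11.39) in p110aLWT_Fed, 11.94 and 12.20 (median 12.09) in p110aLWT_Fasted, 11.09 and 11.46 (median 11.33) in p110aLKO_Fed, and 12.14 and 12.47 (median 12.35) in p110aLKO_Fasted. The log2 change with fasting was 0.70 (SE 0.072, 1.62-fold, adjusted p = 1.04e-07) in p110aLWT and 1.05 (SE 0.0784, 2.07-fold, adjusted p = 6.64e-10) in p110aLKO, and a second probe gave 0.76 and 1.01. The p110aLKO changes of Optn, Atg2a and Sqstm1 were close to each other and within their SE, so they have no order, and without p110aLKO_Fasted replicates 1 and 2 that of Atg2a was the largest of the 3.

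Bnip3 (probe for NM_009760, mm9 chr7:146082760-146082819) and Bnip3l (probe for NM_009761, mm9 chr14:67606210-67606269) encode paired receptors on the outer mitochondrial membrane that mark mitochondria for autophagy. Bnip3 lay between 15.04 and 15.56 (median 15.35) in p110aLWT_Fed, 15.86 and 16.12 (median 16.01) in p110aLWT_Fasted, 14.94 and 15.25 (median 15.17) in p110aLKO_Fed, and 15.41 and 16.09 (median 15.83) in p110aLKO_Fasted. Bnip3l lay between 12.71 and 13.12 (median 12.96), 13.42 and 13.84 (median 13.59), 12.74 and 12.94 (median 12.86), and 13.51 and 13.73 (median 13.59) in the same order of groups. For both genes every fasted array was above every fed array of its genotype. Bnip3 rose by 0.60 (SE 0.0873, 1.52-fold, adjusted p = 9.83e-06) in p110aLWT and by 0.72 (SE 0.0951, 1.65-fold, adjusted p = 2.28e-06) in p110aLKO. Bnip3l rose by 0.59 (SE 0.0542, 1.5-fold, adjusted p = 2.27e-08) and by 0.76 (SE 0.059, 1.69-fold, adjusted p = 1.2e-09). Nbr1, a second receptor for ubiquitin-tagged cargo, changed least, by 0.25 (adjusted p = 0.000653) in p110aLWT and 0.13 (SE 0.0578, adjusted p = 0.0871) in p110aLKO. Its interaction did not pass.

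**Figure D2:**
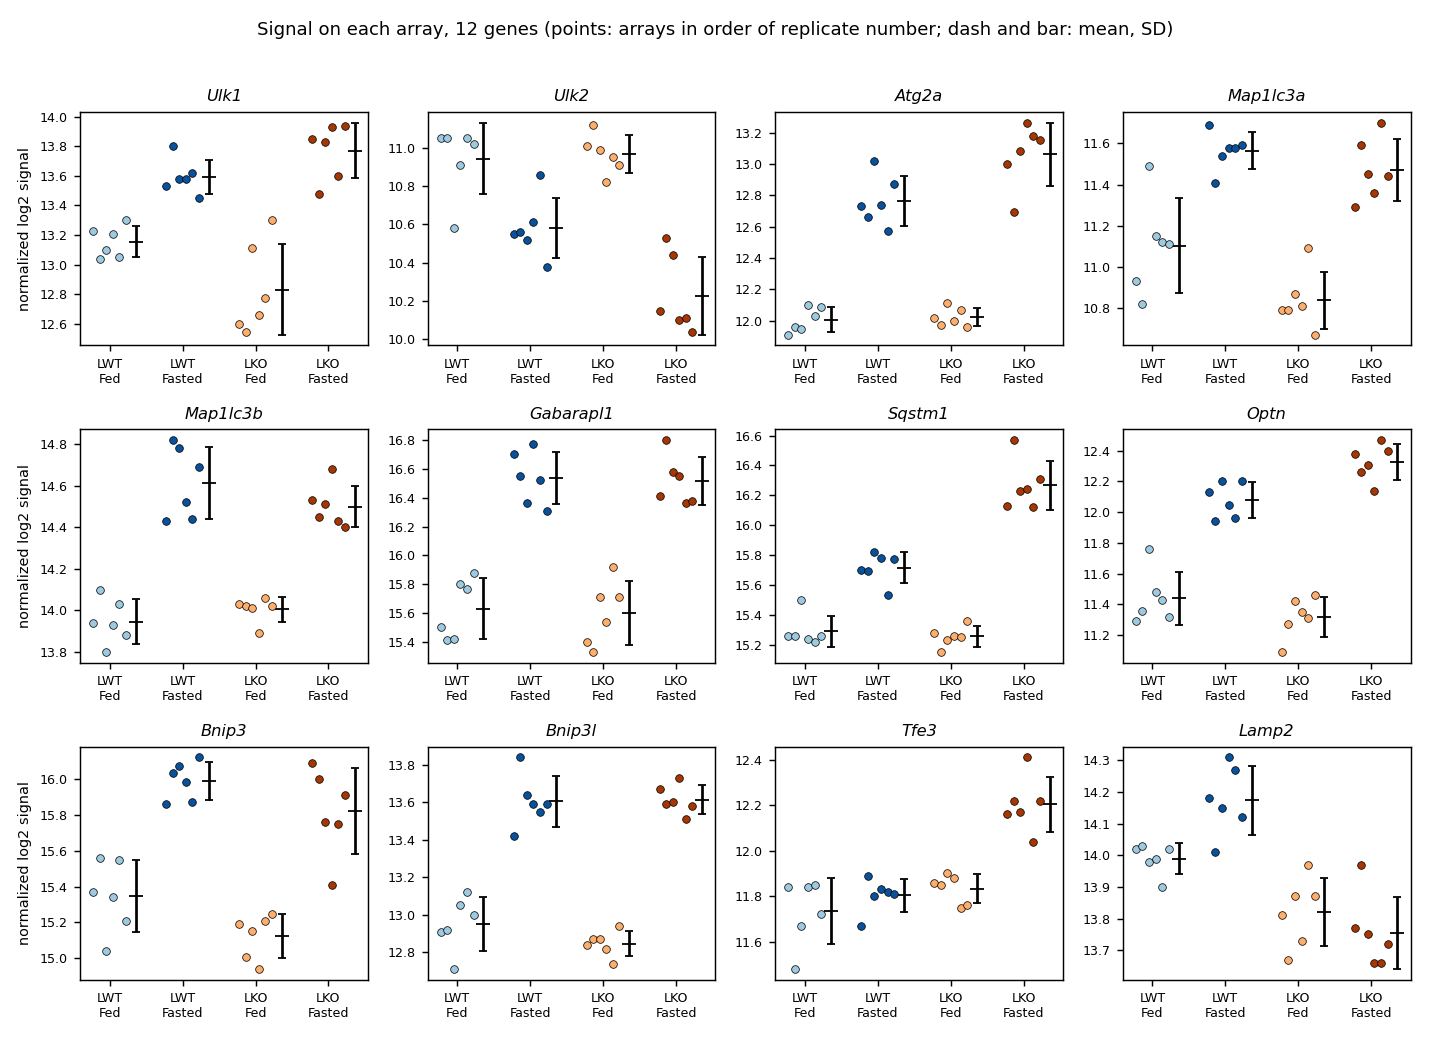
Normalized log2 intensity on each of the 24 arrays for 12 of the genes, with points for single arrays and a dash and bar for the mean and SD of each group (n = 6). Fed and fasted arrays of Gabarapl1, Map1lc3b, Optn, Bnip3, Bnip3l, Atg2a and Ulk1 do not overlap within a genotype, while p110aLKO_Fasted arrays are above all others for Tfe3 (12.04 to 12.41) and below the p110aLWT_Fasted arrays for Lamp2.

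The promoters of some responding autophagy genes, Gabarapl1, Sqstm1, Ulk1 and Optn, are shown because members that rose may be read against what their start sites hold. RefSeq's mouse table (GRCm38.p6) holds a window from 250 bases before to 50 after the start site for 34 of the 41 genes, and none was given for Becn1, Atg12, Atg16l1, Map1lc3a, Bnip3l, Atp6v1h and Ctsb. Capitals mark any match, on either strand, to CACGTG (the E-box core), to TGTTTAN (a forkhead core) or to TGACNNNGC (the antioxidant response element core). Each run reads 5′ to 3′ up to the base before the start site.
Gabarapl1 (chr6:129532942-129533191, + strand): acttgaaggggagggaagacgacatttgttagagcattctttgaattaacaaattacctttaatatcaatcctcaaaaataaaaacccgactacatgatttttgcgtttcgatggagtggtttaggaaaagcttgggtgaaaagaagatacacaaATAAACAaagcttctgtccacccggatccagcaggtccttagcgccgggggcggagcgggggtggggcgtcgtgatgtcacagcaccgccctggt
Sqstm1 (chr11:50210821-50210940, - strand): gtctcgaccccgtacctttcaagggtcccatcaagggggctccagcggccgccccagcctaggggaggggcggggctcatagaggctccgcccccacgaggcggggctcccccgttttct
Ulk1 (chr5:110810082-110810201, - strand): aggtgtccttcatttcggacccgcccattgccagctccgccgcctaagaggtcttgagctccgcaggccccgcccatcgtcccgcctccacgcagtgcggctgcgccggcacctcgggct
Optn (chr2:5064118-5064237, - strand): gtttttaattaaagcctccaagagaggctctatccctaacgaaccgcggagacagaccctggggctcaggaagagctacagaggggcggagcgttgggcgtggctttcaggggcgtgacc
The Gabarapl1 run holds 1 forkhead match, ATAAACA, which reads TGTTTAT on the other strand, at positions -95 to -89 from the start. None of the searched cores is in the 120 bases shown for Sqstm1, Ulk1 and Optn, or in the rest of their windows. The promoters of Atg2a, Map1lc3b and Bnip3, which also rose past 1.5-fold, are not shown. That of Map1lc3b holds TGACNNNGC at positions 5 to 13, and that of Bnip3 holds CACGTG at -108 to -103. TGTTTAN was present in the windows of 3 of the 34 genes (Wipi2, Gabarapl1 and Ctsl), and in those of 15.0% of the 27025 genes in the RefSeq table. TGACNNNGC was present for 6 genes (Ulk2, Atg13, Map1lc3b, Ctsd, Ctsz and Hexa), against 14.0% of all genes. A match is a description of the letters in these windows, not a binding site.

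The lysosomal hydrolases moved in both directions, 3 of 7 up and 2 of 7 down in each genotype, by less than 1.5-fold. Ctsl, which encodes the protease cathepsin L, lay between 15.41 and 15.71 (median 15.57) in p110aLWT_Fed, 15.75 and 16.27 (median 15.94) in p110aLWT_Fasted, 15.56 and 15.84 (median 15.77) in p110aLKO_Fed, and 16.06 and 16.83 (median 16.12) in p110aLKO_Fasted. It was the lysosomal gene whose fasted arrays lay above all fed arrays in both genotypes, with log2 changes of 0.35 (SE 0.0861, adjusted p = 0.00223) and 0.44 (SE 0.0938, adjusted p = 0.000642). A second Ctsl probe rose with fasting by 0.45 and 0.33 and, unlike the first, was also higher in p110aLKO in fed (0.45, adjusted p = 0.0025) and fasted mice (0.34, adjusted p = 0.0211). Ctsz (cathepsin Z) rose by 0.32 (adjusted p = 0.00132) in p110aLWT and 0.27 (adjusted p = 0.0101) in p110aLKO, although on the first slide its p110aLWT change was -0.12. The protease cathepsin B gene, Ctsb, fell by 0.24 (adjusted p = 0.0433) and by 0.28 (adjusted p = 0.0296). The p110aLWT call for Ctsb was lost in 9 of 24 cases where 1 array was left out, and the change was -0.15 (adjusted p = 0.256) without p110aLWT_Fasted replicate 6. Gla, the α-galactosidase of the lysosome, fell by 0.17 (adjusted p = 0.031) and by 0.21 (adjusted p = 0.0173). Ctsd (cathepsin D) rose in p110aLKO by 0.20 (adjusted p = 0.0273) and changed by 0 (adjusted p = 0.966) in p110aLWT, and its interaction did not pass.

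On the lysosomal membrane, Lamp2, a structural protein that autophagosomes need for fusion and that also serves chaperone-mediated autophagy, rose by 0.21 (adjusted p = 0.00639) in p110aLWT. Lamp1, its relative, and the proton pump subunits Atp6v0d1 and Atp6v1h, which acidify the lysosome, did not pass in any comparison with their brightest probe. Their log2 differences ran from -0.20 to 0 for Lamp1, from -0.13 to 0 for Atp6v0d1 and from -0.28 to 0.39 for Atp6v1h. Other probes did pass: the second Lamp1 probe was lower in fasted p110aLKO (-0.26, adjusted p = 0.0294), and the second Atp6v1h probe fell with fasting in p110aLWT (-0.29, adjusted p = 0.0194), was lower in fed p110aLKO (-0.42, adjusted p = 0.00535) and had an interaction of 0.50 (adjusted p = 0.0369). A dim further Atp6v1h probe rose with fasting instead, by 0.29 (adjusted p = 0.000942) and 0.47 (adjusted p = 1.33e-05), so the probes of this gene disagree. Hexa, a subunit of β-hexosaminidase, also passed in no comparison, with log2 differences from 0.10 to 0.27.

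Kupffer cells, the macrophages of the liver, are rich in lysosomes, and their markers varied between mice. The mean log2 level of 12 Kupffer cell markers, all of them measured, ran from 11.41 to 11.91 in p110aLWT_Fed, from 10.59 to 11.86 in p110aLWT_Fasted, from 10.96 to 11.79 in p110aLKO_Fed and from 10.61 to 12.54 in p110aLKO_Fasted. With fasting in p110aLWT, 2 of the 12 fell and the median log2 change was -0.47, and in p110aLKO the median was -0.08. The part of these cells in the lysosomal values was not tested. The mean over 10 hepatocyte markers stayed between 17.10 and 17.43 on all 24 arrays; with fasting 2 rose and 1 fell in p110aLWT (median 0.10), and 1 rose and 1 fell in p110aLKO (median -0.04). For all marker counts here, 19.4% of all genes rose and 21.3% fell with fasting in p110aLWT. In p110aLKO 19.6% rose and 21.7% fell. Of 3 pancreas markers measured of 7, 3 fell in p110aLWT (median -0.60) and 2 in p110aLKO (median -0.98). Of 5 adipose markers of 6, 2 fell in each genotype and 1 rose in p110aLKO (medians -0.22 and -0.15). Of 10 endothelial markers, 2 fell in p110aLWT (median -0.15) and 1 rose in p110aLKO (median -0.05). Of 10 stellate cell markers, 1 rose and 2 fell in p110aLWT (median -0.07), and 2 rose and 3 fell in p110aLKO (median -0.22). Of 4 erythroid markers measured of 7, 1 fell in each (medians -0.47 and 0.10). Their part in the fasting changes was not tested.

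The promoters of several lysosomal genes hold the same short element. TCACGTGA, the core of the element that TFEB and TFE3 bind in lysosomal genes, was found on either strand in the windows of 5 of the 10 lysosomal genes with a promoter (Mcoln1, Atp6v0d1, Ctsa, Ctsd and Gla). In the machinery it was found for 1 of 22 (Atg3), and among all genes of the table in 1.12%. Its inner CACGTG, which TCACGTGA contains, was present for 7 of the 10 lysosomal genes, 5 of the 22 machinery genes (Atg14, Atg3, Atg5, Atg7 and Bnip3) and 8.09% of all genes. Stretches of 5 promoters that hold TCACGTGA are shown, with that of Lamp1, which holds only CACGTG, 4 times. Both are in capitals. The match of Atp6v0d1 spans its start site, at positions -4 to 4, and is not shown.
Mcoln1 (chr8:3500429-3500488, + strand): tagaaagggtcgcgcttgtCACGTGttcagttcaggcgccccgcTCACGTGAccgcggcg
Ctsd (chr7:142387888-142387947, - strand): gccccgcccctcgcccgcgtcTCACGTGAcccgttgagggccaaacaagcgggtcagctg
Gla (chrX:134601186-134601245, - strand): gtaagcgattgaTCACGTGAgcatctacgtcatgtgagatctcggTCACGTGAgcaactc
Atg3 (chr16:45158719-45158778, + strand): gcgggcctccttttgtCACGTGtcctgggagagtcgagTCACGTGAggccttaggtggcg
Lamp1 (chr8:13159091-13159160, + strand): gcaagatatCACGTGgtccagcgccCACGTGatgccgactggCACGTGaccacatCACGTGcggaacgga
Ctsa, from its second listed start site (chr2:164833743-164833772, + strand): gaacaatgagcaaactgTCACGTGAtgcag
None of these genes changed past 1.5-fold with fasting. The log2 changes with fasting in p110aLWT and p110aLKO were 0.12 and -0.06 for Mcoln1, 0 and 0.20 for Ctsd, -0.17 and -0.21 for Gla, -0.06 and -0.06 for Atg3, -0.02 and -0.03 for Atp6v0d1, -0.07 and -0.07 for Lamp1, and 0.50 and -0.01 for Ctsa. Of these, Gla in both genotypes, Ctsd in p110aLKO and Ctsa in p110aLWT passed. The second Mcoln1 probe fell in p110aLKO (-0.18, adjusted p = 0.0152) and changed by -0.06 in p110aLWT.

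The sets were also averaged per array, which shows each mouse. The mean log2 shift of the 27 machinery genes from the p110aLWT_Fed mean ran from -0.06 to 0.06 in p110aLWT_Fed, from 0.24 to 0.30 in p110aLWT_Fasted, from -0.08 to 0.05 in p110aLKO_Fed and from 0.17 to 0.31 in p110aLKO_Fasted. No fasted array overlapped a fed one. For the 12 lysosomal genes the shift ran from -0.05 to 0.06, from -0.03 to 0.18, from -0.01 to 0.05 and from 0 to 0.27 in the same groups, so fed and fasted arrays overlapped in both genotypes. The 7 hydrolases alone ran from -0.04 to 0.11, from -0.05 to 0.27, from 0.07 to 0.18 and from 0.12 to 0.49, and their fed and fasted arrays overlapped too. The 5 cargo receptors ran from -0.05 to 0.06, 0.41 to 0.60, -0.16 to 0.01 and 0.56 to 0.70, and the 5 Atg8 genes from -0.10 to 0.06, 0.36 to 0.49, -0.14 to 0.08 and 0.31 to 0.48.

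**Figure D3:**
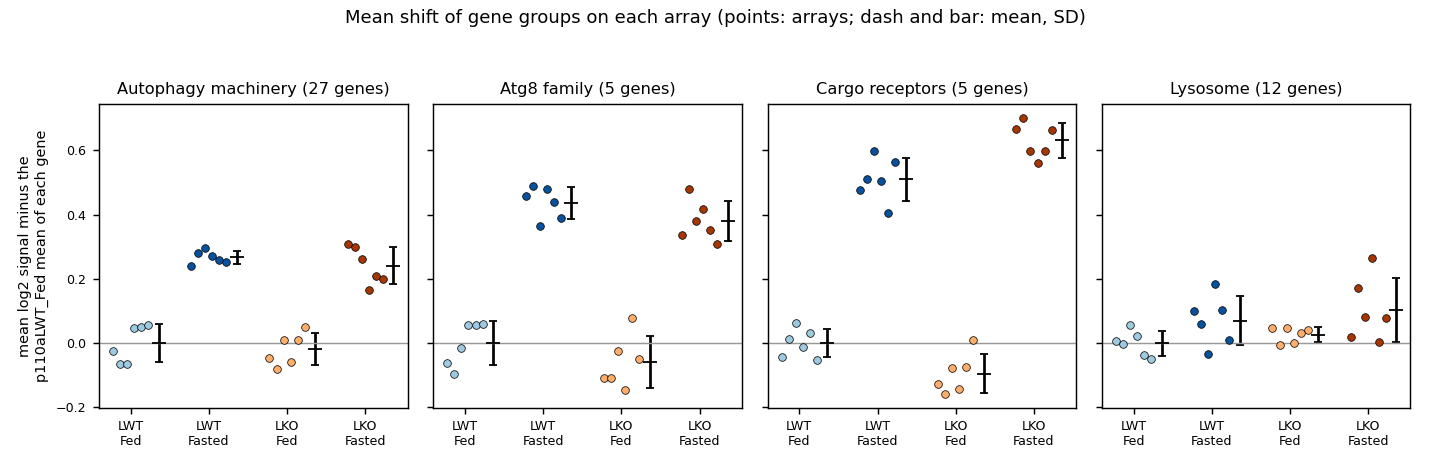
Mean log2 shift of each array from the p110aLWT_Fed mean (vertical axis) for 4 sets of genes: the machinery (27), the Atg8 family (5), the cargo receptors (5) and the lysosome (12). Each point is 1 of 6 arrays per group. Fasted arrays sit above fed arrays for the first 3 sets (0.17 to 0.31 against -0.08 to 0.05 for the machinery in p110aLKO), and the lysosomal points overlap.

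In fed mice the genotypes differed in 10 of the 41 genes, 4 higher and 6 lower in p110aLKO, where 8.73% of all genes were higher and 7.49% lower. Past 1.5-fold there was 1, Atg16l1, and 3.86% of all genes passed that rule. The fed comparison shares the p110aLWT_Fed arrays with the fasting comparison in p110aLWT, and likewise the p110aLKO_Fed arrays with the fasting comparison in p110aLKO, so these values are not independent. The count hangs on single arrays: it was 3 without p110aLWT_Fed replicate 1, 4 or 5, 4 without p110aLWT_Fasted replicate 6 or p110aLKO_Fed replicate 1 or 4, 5 without p110aLKO_Fed replicate 2, and 6 without p110aLKO_Fasted replicate 3 or 6, p110aLWT_Fasted replicate 3 or p110aLKO_Fed replicate 3. It was 7 without both p110aLKO_Fasted replicates 1 and 2. Atg16l1 and Ctsd passed in every setting tried.

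Atg16l1 encodes the scaffold that sets where Atg8 proteins are coupled to the membrane. Its brightest probe, BC033362 (mm9 chr1:89685064-89685123), read 11.64, 11.68, 11.48, 11.80, 11.72 and 11.85 on the p110aLWT_Fed arrays 1 to 6, and 12.81, 12.36, 12.64, 12.63, 12.62 and 12.70 on the p110aLKO_Fed arrays. No arrays overlapped, and the log2 difference was 0.91 (SE 0.145, 1.88-fold, adjusted p = 0.000325). The p110aLWT_Fasted arrays read 11.76, 11.87, 11.81, 12.03, 11.94 and 11.94, and the p110aLKO_Fasted arrays read 12.98, 12.87, 12.01, 12.06, 11.73 and 11.83. Replicates 1 and 2 of p110aLKO_Fasted, the arrays that stand apart over all genes, thus lay with the fed p110aLKO arrays, and replicates 3 to 6 near the p110aLWT_Fasted arrays. In the cargo receptors the same 2 arrays lay with the fasted arrays, at mean log2 shifts from the p110aLWT_Fed mean of 0.668 and 0.70. The ranges were 0.41 to 0.60 in p110aLWT_Fasted, -0.16 to 0.01 in p110aLKO_Fed and 0.56 to 0.70 in p110aLKO_Fasted, which includes these 2 arrays. The 2 fasted groups overlap, so this score does not check the genotype labels. The arrays were used as labelled, and whether the labels of p110aLKO_Fasted replicates 1 and 2 are right was not tested. Fasting in p110aLKO lowered this probe by 0.42 (SE 0.156, adjusted p = 0.0373) with all 6 arrays and by 0.76 (adjusted p = 1.05e-06) without replicates 1 and 2. With 1 array left out the call was lost in 9 of 24 cases, and the change was -0.26 (adjusted p = 0.205) without p110aLKO_Fasted replicate 5.

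The signal depended on where in the gene the probe lies. A probe that overlaps the first (mm9 chr1:89685077-89685136) showed a like fed difference, 1.02 (adjusted p = 0.000124). On the p110aLKO_Fasted arrays 1 to 6 it read 10.57, 10.50, 9.56, 9.88, 9.43 and 9.61, so replicates 1 and 2 were again the highest, but 5 of the 6 were above the highest p110aLWT array (9.55). A probe for the RefSeq transcript NM_029846 (mm9 chr1:89688896-89688955) showed a fed difference of 0.14 (adjusted p = 0.171) and instead rose with fasting, by 0.38 (adjusted p = 8.96e-05) in p110aLWT and 0.40 (adjusted p = 0.000105) in p110aLKO. The genotype difference of Atg16l1 is therefore a difference in the stretch that 2 overlapping probes read, and not in all 3 probes kept.

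**Figure D4:**
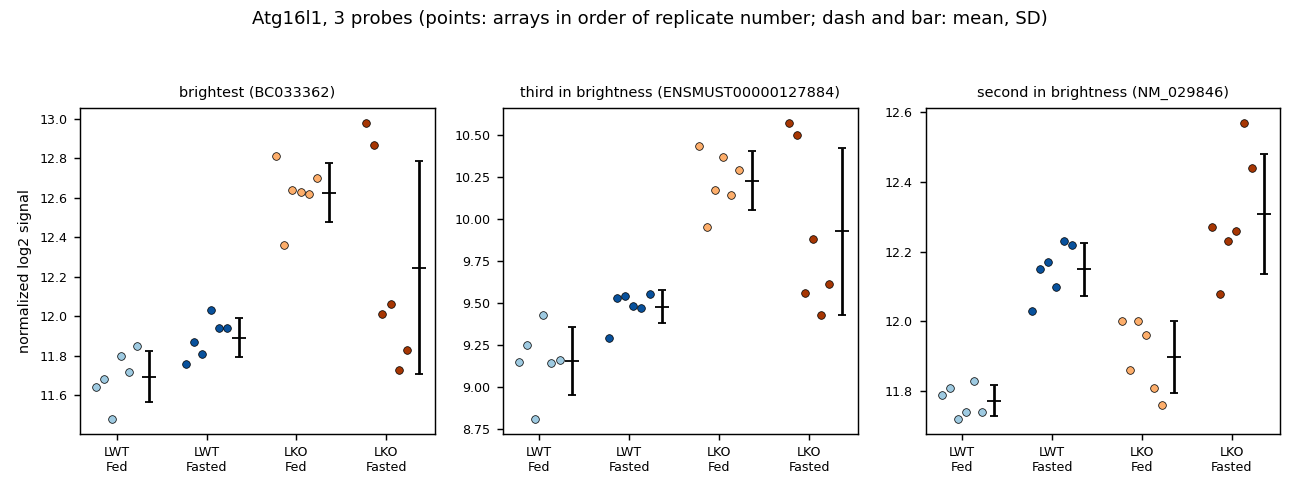
Normalized log2 intensity of 3 Atg16l1 probes on each of the 24 arrays by group (points are arrays). The 2 overlapping probes are higher in all p110aLKO_Fed arrays than in any p110aLWT array and highest of the p110aLKO_Fasted arrays in replicates 1 and 2, and the remaining probe is higher in the fasted arrays of both genotypes.

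Ctsa encodes protective protein/cathepsin A, which stabilizes lysosomal galactosidase and neuraminidase. It read 14.12 to 14.60 (median 14.38) in p110aLWT_Fed, 14.62 to 15.23 (median 14.88) in p110aLWT_Fasted, 14.89 to 15.13 (median 14.91) in p110aLKO_Fed and 14.85 to 15.26 (median 14.97) in p110aLKO_Fasted. The p110aLWT_Fed arrays were the low ones, and the other 3 groups overlapped. The fed log2 difference was 0.55 (SE 0.0968, 1.47-fold, adjusted p = 0.000642). Fasting raised Ctsa by 0.50 (SE 0.0956, adjusted p = 0.000238) in p110aLWT and changed it by -0.01 in p110aLKO. A second, dim Ctsa probe went the other way in fed mice, at -0.36 (adjusted p = 0.0139), was also lower in fasted p110aLKO (-0.44, adjusted p = 0.00355), and did not pass for fasting in p110aLWT (-0.07, adjusted p = 0.585), and with the mean of both probes the fed difference was 0.10 (adjusted p = 0.358).

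The other fed differences were small. Ctsd was lower in p110aLKO by a log2 difference of -0.25 (adjusted p = 0.0112), and Mcoln1, the calcium channel of the lysosomal membrane, was higher by 0.23 (adjusted p = 0.0226). A second, dim Mcoln1 probe gave 0.11 (adjusted p = 0.202) for the fed difference. Ctsz was higher by 0.22 (adjusted p = 0.0481), although not on the first slide, where the difference was -0.14. Bnip3 (-0.27, adjusted p = 0.0423), Atg3 (-0.17, adjusted p = 0.0462), Atg5 (-0.14, adjusted p = 0.0497) and Lamp2 (-0.17, adjusted p = 0.0468) lay close to the threshold. The direction for Lamp2 in fed mice depends on the probe, since the others gave 0.06 (adjusted p = 0.618) and 0.26 (adjusted p = 0.0384). The second Bnip3l probe was lower in fed p110aLKO (-0.19, adjusted p = 0.0252), and a dim Gabarapl2 probe was higher (0.53, adjusted p = 0.0307). The mean over the Kupffer cell markers overlapped between the fed groups, with a median log2 difference over the 12 of -0.38. Of the other markers, 2 of 10 endothelial (median -0.29), 1 of 10 stellate, 1 of 4 erythroid and 1 of 5 adipose (median -0.45) were lower in fed p110aLKO, and of 3 pancreas markers 1 was higher and 1 lower, as of 10 hepatocyte markers. Among all genes 8.73% were higher and 7.49% lower in this comparison, and the part of these markers in the differences was not tested.

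In fasted mice, 8 of the 41 genes differed between the genotypes, 4 higher and 4 lower in p110aLKO, all by less than 1.5-fold. Among all genes 9.79% were higher, 10.2% were lower and 4.0% passed the 1.5-fold rule. The count was 5 without p110aLWT_Fasted replicate 5 and 9 without p110aLKO_Fasted replicates 1 and 2. Of the markers, 3 of 3 pancreas genes (1 higher, 2 lower), 3 of 5 adipose genes (1 higher, 2 lower), 1 of 4 erythroid genes (lower) and 2 of 10 hepatocyte genes (lower) also passed in this comparison, and the 12 Kupffer cell markers had a median difference of 0. The part of these markers was not tested. Sqstm1, Tfeb, Tfe3 and Lamp2 passed in every setting tried. Sqstm1 was higher in p110aLKO by 0.54 (SE 0.0694, 1.45-fold, adjusted p = 1.6e-05), with no overlap of arrays. A second Sqstm1 probe gave 0.47 (adjusted p = 0.000241), and a dim further one, which rose with fasting by 0.42 and 0.36 in p110aLWT and p110aLKO, gave 0.05 (adjusted p = 0.703).

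The genes of the transcription factors TFEB and TFE3 differed in opposite directions. Tfe3 lay between 11.48 and 11.85 (median 11.78) in p110aLWT_Fed, 11.67 and 11.89 (median 11.82) in p110aLWT_Fasted, 11.75 and 11.90 (median 11.86) in p110aLKO_Fed, and 12.04 and 12.41 (median 12.19) in p110aLKO_Fasted. The p110aLKO_Fasted arrays stood above all others. The difference from fasted p110aLWT was 0.38 (SE 0.0657, adjusted p = 0.000295), and fasting raised Tfe3 in p110aLKO by 0.34 (SE 0.0663, adjusted p = 0.000262). Tfeb lay between 8.11 and 8.54 (median 8.29), 8.42 and 8.63 (median 8.60), 8.01 and 8.55 (median 8.17), and 7.76 and 8.37 (median 8.12) in the same order of groups. In fasted mice it was lower in p110aLKO by a log2 difference of -0.47 (SE 0.0983, adjusted p = 0.0018), with no overlap, and fasting had raised it in p110aLWT by 0.32 (SE 0.0911, adjusted p = 0.00657). The 3 other Tfeb probes gave fasted differences of -0.16, -0.20 and -0.05, none of which passed. For fasting in p110aLWT they gave 0.23 (adjusted p = 0.0252), -0.03 (adjusted p = 0.805) and 0.01 (adjusted p = 0.892).

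Lamp2 lay between 13.90 and 14.03 (median 14.00) in p110aLWT_Fed, 14.01 and 14.31 (median 14.17) in p110aLWT_Fasted, 13.67 and 13.97 (median 13.84) in p110aLKO_Fed, and 13.66 and 13.97 (median 13.74) in p110aLKO_Fasted. All p110aLKO_Fasted arrays were below all p110aLWT_Fasted arrays. The fasted difference was -0.44 (SE 0.0624, adjusted p = 4.59e-05). Of the other Lamp2 probes, 1 gave -0.11 (adjusted p = 0.266) and 1 gave -0.29 (adjusted p = 0.0219). The remaining fasted differences were 0.28 for Atg2a (adjusted p = 0.0241), 0.27 for Optn (adjusted p = 0.0177), -0.34 for Ulk2 (adjusted p = 0.016) and -0.16 for Atg5 (adjusted p = 0.029). The second Optn probe gave 0.15 (adjusted p = 0.216) and the second Ulk2 probe -0.43 (adjusted p = 0.00102).

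**Figure D5:**
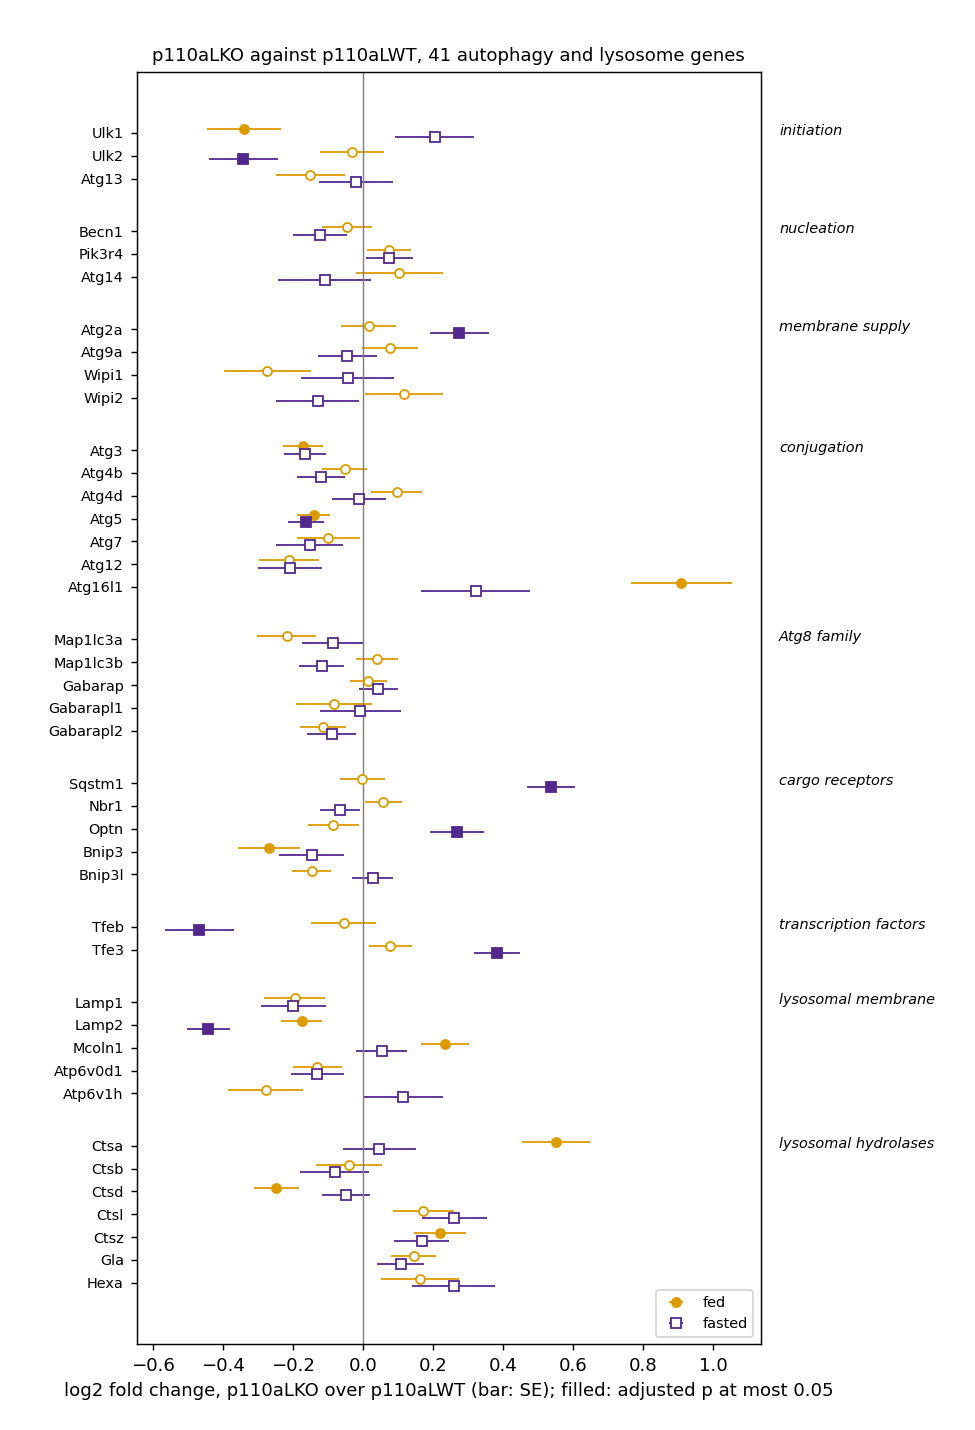
Log2 difference of p110aLKO from p110aLWT for each of the 41 genes (horizontal axis, with its standard error) in fed and in fasted mice (6 arrays per group), with filled symbols where the adjusted p was at most 0.05. Atg16l1 lies farthest to the right in fed mice (0.91) and Sqstm1 in fasted mice (0.54), while Tfeb (-0.47) and Lamp2 (-0.44) lie farthest to the left in fasted mice.

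Whether fasting acted differently in the genotypes was tested by the interaction, the fasting change in p110aLKO minus that in p110aLWT. It passed for 5 of the 41 genes, 4 with a more positive and 1 with a more negative change in p110aLKO, all under 1.5-fold. Of all genes, 3.94% were more positive and 3.61% more negative, and 2.99% passed the 1.5-fold rule. The value was 0.54 for Sqstm1 (SE 0.0951, adjusted p = 0.00155), 0.54 for Ulk1 (SE 0.154, adjusted p = 0.0347), 0.35 for Optn (SE 0.106, adjusted p = 0.0478), 0.31 for Tfe3 (SE 0.09, adjusted p = 0.0426) and -0.50 for Ctsa (SE 0.141, adjusted p = 0.0335). By their brightest probes, fasting therefore raised Ulk1, Sqstm1 and Optn in both genotypes and by more in p110aLKO.

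Only the Sqstm1 interaction passed in every setting tried, and its second probe gave 0.50 (adjusted p = 0.00711). Leaving out 1 of the 24 arrays ended the call in 9 cases for Ulk1, 17 for Optn, 14 for Tfe3 and 8 for Ctsa. The count of 5 became 1 without p110aLWT_Fasted replicate 6, p110aLWT_Fed replicate 5 or p110aLKO_Fasted replicate 3 or 6, and 2 without p110aLWT_Fed replicate 1, p110aLKO_Fed replicate 5 or p110aLWT_Fasted replicate 5. It became 3 without p110aLKO_Fed replicate 3, 4 or 6, p110aLWT_Fasted replicate 1 or 4, or p110aLWT_Fed replicate 4, and 7 without both p110aLKO_Fasted replicates 1 and 2. The other probes of Ulk1 (0.08, adjusted p = 0.761) and Optn (0.25, adjusted p = 0.197) did not pass, nor did a dim further probe of Sqstm1 (-0.06) or the second probe of Ctsa (-0.09, adjusted p = 0.759). Of the genes with a single-genotype fasting call, Tfeb (-0.41, adjusted p = 0.0663), Lamp2 (-0.27, adjusted p = 0.0618) and Atg16l1 (-0.59, adjusted p = 0.0977) did not pass the interaction test. Other probes of Lamp2 (-0.55, adjusted p = 0.00814) and Ulk2 (-0.45, adjusted p = 0.0198) did, in the direction of the brightest probe.

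Other genes of the same pathways, from lists drawn up by function, moved in both directions. Of 35 further autophagy genes, 12 rose and 5 fell with fasting in p110aLWT, and 13 rose and 6 fell in p110aLKO, with a median log2 change of 0.14 in each. For these fasting counts, 19.4% of all genes rose and 21.3% fell in p110aLWT, and 19.6% rose and 21.7% fell in p110aLKO, as for the other lists below. Calcoco1, an autophagy receptor for the endoplasmic reticulum, rose by 1.16 (adjusted p = 0.000107) in p110aLWT and by 0.72 (adjusted p = 0.0131) in p110aLKO. Atg9b, a relative of Atg9a, fell by 0.88 (adjusted p = 0.000337) in p110aLWT and by 0.57 (adjusted p = 0.0197) in p110aLKO. Atg16l2, a relative of Atg16l1, rose with fasting in p110aLKO by 0.70 (adjusted p = 0.00113), with an interaction of 0.79 (adjusted p = 0.0292).

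Of 37 further lysosomal hydrolases and activators, 11 rose and 7 fell in p110aLWT (median 0.02), and 7 rose and 10 fell in p110aLKO (median -0.09). Arsa, arylsulfatase A, rose by 0.83 (adjusted p = 5.43e-06) and by 1.13 (adjusted p = 2.11e-07). Gaa, the acid glucosidase that breaks down glycogen in the lysosome, rose by 0.51 (adjusted p = 1.19e-06) and by 0.79 (adjusted p = 6.84e-09), whereas Gm2a, the activator protein for ganglioside breakdown, fell by 0.46 (adjusted p = 0.00408) and by 0.92 (adjusted p = 7.67e-06). In fasted mice 9 of these 37 genes were lower in p110aLKO and 1 was higher, where 10.2% of all genes were lower.

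Of 27 further genes of the lysosomal membrane and proton pump, 11 rose and 3 fell in p110aLWT, and 11 rose and 4 fell in p110aLKO. Npc1, which moves cholesterol out of the lysosome, rose by 0.75 (adjusted p = 3.84e-07) and 0.79 (adjusted p = 5.71e-07), and Slc36a1, a proton-coupled amino acid carrier of the lysosome, fell by 1.29 (adjusted p = 3.17e-09) and 1.31 (adjusted p = 6.53e-09). Of 32 genes that control mTORC1 and TFEB, 9 rose and 9 fell in p110aLWT, and 7 rose and 10 fell in p110aLKO. Fnip1, a partner of folliculin, rose by 1.06 (adjusted p = 5.52e-08) and 0.90 (adjusted p = 1.49e-06). Foxo1, a forkhead factor that insulin holds out of the nucleus, rose by 0.72 (adjusted p = 2.54e-05) in p110aLWT and changed by 0.05 (adjusted p = 0.768) in p110aLKO, with an interaction of -0.66 (adjusted p = 0.0185).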

How the data were processed

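Liver RNA of 24 mice was labelled with 1 dye and hybridized to 3 slides of 8 arrays, 2 arrays of each group on each slide. The authors scanned the arrays and deposited the Feature Extraction 10.10.1.1 output, whose median signal is an intensity on a linear scale, not normalized. They also deposited a table of processed values on a log2 scale, used here as an alternative. Whole mice are the replicates.

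From the intensity, control and outlier spots were left out, spots of a probe were averaged, and a probe was kept if well above background on at least 5 of 6 arrays of any group (32197 of 56605 probes). Values were log2 transformed and quantile normalized. limma 3.58.1 in R 4.3.3 fitted group means with the slide as a term, because the washing bath that the methods correct for is not named in the labels and each slide holds all groups, and with array weights (0.317 to 1.84). Values missing from kept probes (46 in all) were left out of the fit. P-values were adjusted by Benjamini-Hochberg over all kept probes. On data simulated for fasting in p110aLWT (32151 probes), 81 of 100 probes changed 1.5-fold and 97 of 100 changed 2-fold were recovered. No other probe was changed there and the noise was independent between probes, unlike the real arrays. These shares therefore hold for that setting and are not those of the comparisons reported here.

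A gene is represented by its brightest probe by mean log2 median signal over the 24 arrays. Genes past 1.5-fold and an adjusted p of 0.05 in any comparison are given in full, those past the adjusted p alone with their change, and the others by their range. Tfe3, Tfeb, Lamp2, Ctsa, Ctsl and Atg14 are also given by group, chosen after their values were seen. The genes and the lists of other pathway genes and markers were chosen with earlier results of these data known. Alternatives changed the filter, background correction, normalization, weights, slide term, replicate block, groups in the fit, choice of probe and arrays. With arrays, precision depends on how many mice a group holds, here 6.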

Additional observations from a re-analysis of the deposited data

Results flagged for a closer look

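Among 52 groups of 6 arrays over 13 genes, 4 held an array far from its group, where chance alone marks about 1 in 20 groups. Ulk2 on p110aLWT_Fed replicate 3 was the low one, at 10.58 against 10.91 for the nearest array, and it is the array through which the fed and fasted p110aLWT groups overlap. Map1lc3b on p110aLKO_Fed replicate 4 read 13.89 against 14.01 for the nearest. Sqstm1 on p110aLWT_Fed replicate 3 read 15.50 against 15.26, and Ctsa on p110aLKO_Fasted replicate 4 read 15.26 against 14.99. The array weight in the fit was 0.32 for p110aLWT_Fed replicate 3, 0.36 for p110aLKO_Fasted replicate 4 and 1.16 for p110aLKO_Fed replicate 4. What sets them apart was not tested.

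The interaction test in limma passed for 5 genes, of which only Sqstm1 passed in every setting tried. The log2 interaction was 0.54 for Ulk1, 0.54 for Sqstm1, 0.35 for Optn, 0.31 for Tfe3 and -0.50 for Ctsa. For the first 4 the change was more positive in p110aLKO, and for Ctsa it was more positive in p110aLWT.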

How the results depend on the processing

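The 5 comparisons hold 67 calls of single genes. The number that still passed in the same direction was 67 with the deposited log2 table, with normexp background correction or with probes well above background on all 24 arrays. It was 65 with no slide term, 60 with the replicate number as a block, 60 without p110aLKO_Fasted replicates 1 and 2, 59 with the processed signal scaled to the 75th percentile, 58 with median centring, 57 with the mean of a gene's probes, 55 with no array weights, 52 with no filter on dim probes, and 48 of 62 with only the groups compared in the fit. The replicate numbers do not pair the arrays. Over 36 pairs of the same number in different groups, deviations from the group means correlated at -0.18 to 0.28 (median -0.03, against 0 for other pairs), and 2 of 24 arrays correlated best with their own number. With the replicate block, the counts were 21 and 21 for fasting in p110aLWT and p110aLKO, 8 for fed and 7 for fasted genotype differences, and 6 for the interaction.

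Past 1.5-fold the counts were 6, 9, 1, 0 and 0 in the same order in limma, against 23, 21, 10, 8 and 5 by the adjusted p alone. The fed count was 5 with no filter, 5 with no array weights and 3 with only the groups compared, and the fasted count was 5 with only the groups compared. The interaction count was 1 with no filter, 3 with no array weights and 8 with no slide term. With 1 array left out, the counts ran from 20 to 23, 17 to 22, 3 to 10, 5 to 10 and 1 to 7. Of 1608 single-gene values with 1 array left out, 1412 kept the call, 196 lost it and 0 changed sign. Further fasting calls that single arrays ended, with the number of cases of 24 and the array that weakened them most, were Atg4d (4, p110aLWT_Fasted replicate 6), Gabarapl2 (3, p110aLWT_Fasted replicate 5) and Gla (5, p110aLWT_Fasted replicate 6) in p110aLWT. In p110aLKO they were Atg9a (2, p110aLKO_Fasted replicate 6), Gabarapl2 (3, p110aLKO_Fasted replicate 1), Ctsb (4, p110aLKO_Fasted replicate 1), Ctsd (3, p110aLKO_Fed replicate 4) and Gla (2, p110aLKO_Fasted replicate 5).

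The median change of the machinery was 0.18 in p110aLKO with median centring and 0.26 in p110aLWT with no array weights. On slides 1 and 2 alone, the machinery median in p110aLWT was 0.28 and 0.28. The lysosomal median was 0.19 in p110aLKO on slide 1, and -0.06 and 0.13 in p110aLWT on slides 1 and 3. With 1 array left out, these medians ran from 0.20 to 0.26 and from 0.10 to 0.21 for the machinery and from 0.01 to 0.08 and from -0.03 to 0 for the lysosome in p110aLWT and p110aLKO. Signs turned on the first slide alone for Ctsz (-0.12 for fasting in p110aLWT, -0.14 for fed genotypes) and Wipi1 (-0.12 for fasting in p110aLKO), and with the mean of its probes for Lamp2 in fed mice (0.05, adjusted p = 0.461). The cause of these shifts was not tested, beyond the fewer arrays that single slides hold.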
